A study of Mus musculus with 6 samples.

Results

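The genes described here are 38 genes of endothelial identity, angiogenic signalling and leukocyte adhesion, taken by symbol from a table of 34745 genes. Each symbol matched 1 row, and all 38 passed the filter on low counts and were among the 15198 genes tested. The libraries are total RNA of the left ventricle of male wild-type C57BL/6 mice, an inbred strain, given as 8 weeks old. For 3 libraries the surgery was transverse aortic constriction (TAC), a ligature that narrows the aortic arch so that the ventricle ejects against a raised pressure. For the other 3 it was a sham operation (Sham). Tissue was taken 6 weeks after surgery in both groups. Libraries are named by label and number (TAC 1, Sham 1 and so on). The labels leave it unstated whether the 6 libraries are 6 mice, so p-values measure the spread among these samples, which may be technical.

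Blood vessels are lined by endothelial cells, which in the heart form a dense capillary bed around the muscle fibres. Vascular endothelial growth factors (VEGF) bind receptor kinases on these cells, and angiopoietins act on the receptor Tek. The apelin and adrenomedullin peptides signal through receptors of the same cells. Activated endothelium displays selectins and immunoglobulin-type adhesion molecules that slow and arrest leukocytes. Endothelial cells also carry fatty acids, water and bicarbonate between blood and muscle.

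Gene counts summed to 17399510 to 28401399 per library. Nppa and Acta1, genes known to rise in the pressure-overloaded ventricle, were lower in the TAC-labelled libraries. Nppa had an FPKM (fragments per kilobase of gene length, scaled to library depth) of 72.7 to 109.2 there and 728.1 to 2183 in the Sham-labelled ones, and its log2 difference, labelled TAC minus labelled Sham, was -3.70 (SE 0.45, edgeR adjusted p = 0.0222). Acta1 had an FPKM of 83.9 to 430.9 against 2261 to 3499 (log2 difference -3.23, SE 0.56, edgeR adjusted p = 0.0448). These values go against the labels, so each group is named by its label and each direction is that of the labels.

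Among the endothelial genes Vcam1, a leukocyte adhesion molecule, was the 1 that passed the test, lower in the TAC-labelled libraries. The VEGF receptor Kdr, the ligands Vegfa and Vegfb and the peptide Apln were 1.32-fold to 2.91-fold higher there and did not pass. Flt4, Ramp2, Sox17 and Sox18 were 1.31-fold to 1.61-fold lower there and did not pass either. Passing means an adjusted p under 0.05 in edgeR's quasi-likelihood test over all genes tested. By that rule 1 of 38 members passed, against 1.43% of the genes tested. None of the 38 passed as higher in the TAC-labelled libraries, against 0.322% of the genes tested. At an unadjusted p under 0.05 there were 9 of 38 (those named above), or 23.7%, against 20.9% of the genes tested. The median log2 difference was -0.03 over the members and 0.01 over all genes tested, with median absolute differences of 0.19 and 0.23. With DESeq2 in place of edgeR, 5 of 38 passed (Vcam1, Kdr, Vegfa, Vegfb and Apln), against 7.79% of the genes it tested.

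In 7 members the 2 groups of TMM-scaled counts did not overlap, which is 18.4% of the members against 27.0% of the genes tested. The libraries labelled TAC were the higher ones for Kdr, Vegfa, Vegfb, Angpt1 and Apln, 5 of 38 against 13.4% of the genes tested. The libraries labelled Sham were the higher ones for Flt4 and Vcam1, 2 of 38 against 13.6%. With the deposited FPKM, which is not TMM-scaled, Sox18, Calcrl and Ramp2 also did not overlap, all higher in the Sham-labelled libraries. The share of all genes that did not overlap in FPKM was not computed. These are bulk libraries, in which fewer endothelial cells and less RNA per endothelial cell cannot be told apart.

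**Figure D1:**
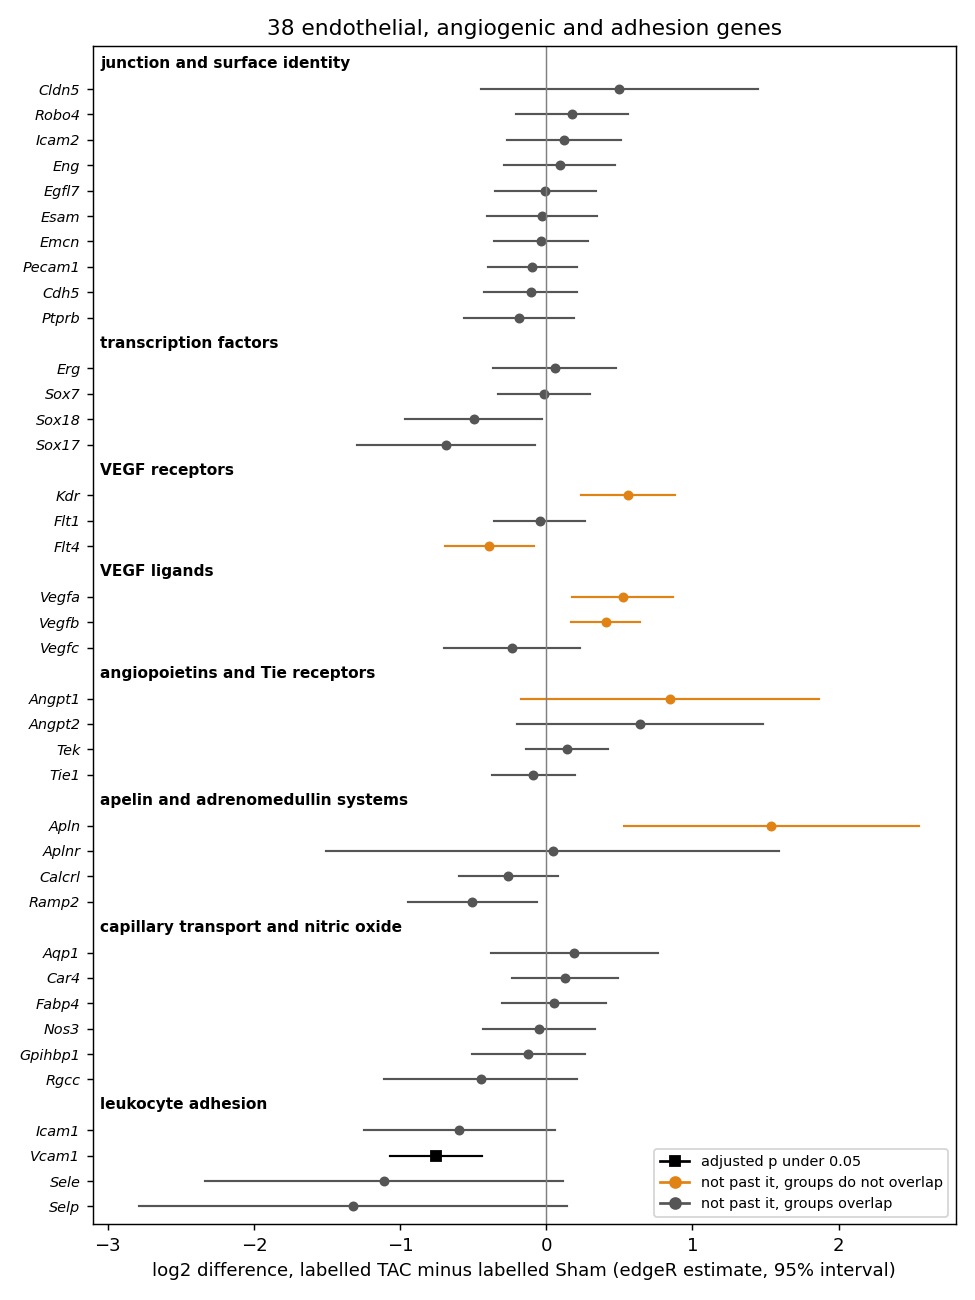
Estimated log2 difference, labelled TAC minus labelled Sham, of each of the 38 members with its 95% interval (edgeR, 3 libraries per group), grouped by role. The square is Vcam1, the member past an adjusted p of 0.05, and orange points are members not past it whose groups do not overlap.

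The starts of the genes whose groups did not overlap are shown where RefSeq gave a window. RefSeq windows on GRCm38.p6 matched 22 of the 38 members by symbol, with no entry for Vcam1 or Angpt1. The 250 bases before the start site are printed 5′ to 3′ on the gene's strand, with the GC box (GGGCGG, or CCGCCC on the other strand, overlapping copies included) in capitals. They lie at chr5:75978456-75978705 (minus strand) for Kdr, chr17:46032378-46032627 (minus) for Vegfa, chr19:6987652-6987901 (minus) for Vegfb, chrX:48034854-48035103 (minus) for Apln and chr11:49609429-49609678 (plus) for Flt4. Start sites are those of RefSeq. For Flt4 the counted gene begins at chr11:49609263, so its window lies inside the counted gene and not before it.
Kdr: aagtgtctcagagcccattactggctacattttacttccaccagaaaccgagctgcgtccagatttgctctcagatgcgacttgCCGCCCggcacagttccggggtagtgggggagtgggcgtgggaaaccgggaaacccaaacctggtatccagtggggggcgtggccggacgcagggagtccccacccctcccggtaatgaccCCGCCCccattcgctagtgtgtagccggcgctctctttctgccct
Vegfa: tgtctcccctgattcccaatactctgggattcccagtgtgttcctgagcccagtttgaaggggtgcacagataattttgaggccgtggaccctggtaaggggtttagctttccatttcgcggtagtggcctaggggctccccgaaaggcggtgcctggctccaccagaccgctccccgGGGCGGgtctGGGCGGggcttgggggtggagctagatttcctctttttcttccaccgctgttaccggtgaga
Vegfb: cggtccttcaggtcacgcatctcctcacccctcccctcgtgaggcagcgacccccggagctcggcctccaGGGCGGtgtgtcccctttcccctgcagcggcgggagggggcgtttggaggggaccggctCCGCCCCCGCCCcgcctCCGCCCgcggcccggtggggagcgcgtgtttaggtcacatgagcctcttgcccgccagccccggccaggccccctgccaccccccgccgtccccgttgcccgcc
Apln: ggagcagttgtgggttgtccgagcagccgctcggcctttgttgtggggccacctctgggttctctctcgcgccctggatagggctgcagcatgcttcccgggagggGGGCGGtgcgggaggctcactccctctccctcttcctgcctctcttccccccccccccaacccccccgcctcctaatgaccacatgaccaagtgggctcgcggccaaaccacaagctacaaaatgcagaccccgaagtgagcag
Flt4: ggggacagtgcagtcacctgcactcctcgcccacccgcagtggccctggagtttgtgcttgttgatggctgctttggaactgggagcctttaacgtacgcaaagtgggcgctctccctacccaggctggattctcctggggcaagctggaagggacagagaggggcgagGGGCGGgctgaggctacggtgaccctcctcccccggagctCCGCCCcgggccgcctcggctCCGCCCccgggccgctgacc
All 5 windows held the GC box, with 2 copies in Kdr, 2 in Vegfa, 4 in Vegfb, 1 in Apln and 3 in Flt4. It was present in 32.7% of all 32851 RefSeq windows of the same length. The core of the hypoxia response element has A or G as its first base. With A (ACGTG, or CACGT on the other strand) it was in none of the 5 windows and in 16.6% of all. With G (GCGTG, or CACGC on the other strand) it occurred 2 times in Kdr and 2 times in Vegfb, was not in the other 3 windows, and was in 28.2% of all. A match is a description of the letters, and Flt4, whose difference had the opposite sign, also held the GC box.

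Junction and surface genes that define endothelial cells did not pass the test. None of the 10 passed with edgeR or DESeq2 or reached an unadjusted p of 0.05 with edgeR, and they had a median log2 difference of -0.02, 4 positive and 6 negative, with overlapping groups in all 10. Cdh5, which encodes the adhesion protein of endothelial junctions, had an FPKM of 48.5, 61.7 and 50.9 in TAC-labelled libraries 1, 2 and 3 and 55.2, 67.0 and 58.5 in Sham-labelled libraries 1, 2 and 3. Its groups overlapped, and the 95% interval of its log2 difference ran from -0.42 to 0.21, a ratio of labelled TAC to labelled Sham between 0.746 and 1.16. Pecam1, an adhesion receptor at cell borders, had an FPKM of 19.9, 19.8 and 22.1 against 20.03, 26.4 and 22.5 (log2 difference -0.09, 95% interval -0.40 to 0.21).

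Among the other junction and surface genes, Ptprb, a receptor phosphatase that acts on Tek and Cdh5, had the most negative estimate (log2 difference -0.18, SE 0.16, edgeR adjusted p = 0.561). Egfl7, a secreted endothelial protein, was at -0.00 and Emcn, a sialomucin of capillaries and veins, at -0.03. Esam, an adhesion molecule of tight junctions, was at -0.03, Eng, a TGF-beta co-receptor, at 0.09, Icam2 at 0.12 and Robo4, a guidance receptor, at 0.18. For these 7 genes with Cdh5 and Pecam1, every 95% interval lay within -0.56 to 0.56 on the log2 scale. Intervals of this width do not show that the levels are equal.

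Cldn5, a tight junction claudin and the junction gene with the smallest p, varied with 1 library. Its FPKM was 3.75, 3.95 and 9.82 in TAC-labelled libraries 1, 2 and 3 and 3.25, 5.83 and 3.66 in Sham-labelled libraries 1, 2 and 3. TAC 3 stood above the other 5, which overlapped. The log2 difference was 0.50 (SE 0.41, edgeR adjusted p = 0.526) over all libraries and -0.08 without TAC 3.

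The junction genes were highest as a set in 1 library. Relative to each gene's mean over the 6 libraries, their median log2 deviation was 0.24 in Sham 2, the most deeply sequenced. It lay between -0.15 and 0.00 in the other 5 libraries. Over all 38 members the median deviation of Sham 2 was 0.22. Without that library the estimates of Pecam1 and Cdh5 were 0.04 and 0.00 in place of -0.09 and -0.10.

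**Figure D2:**
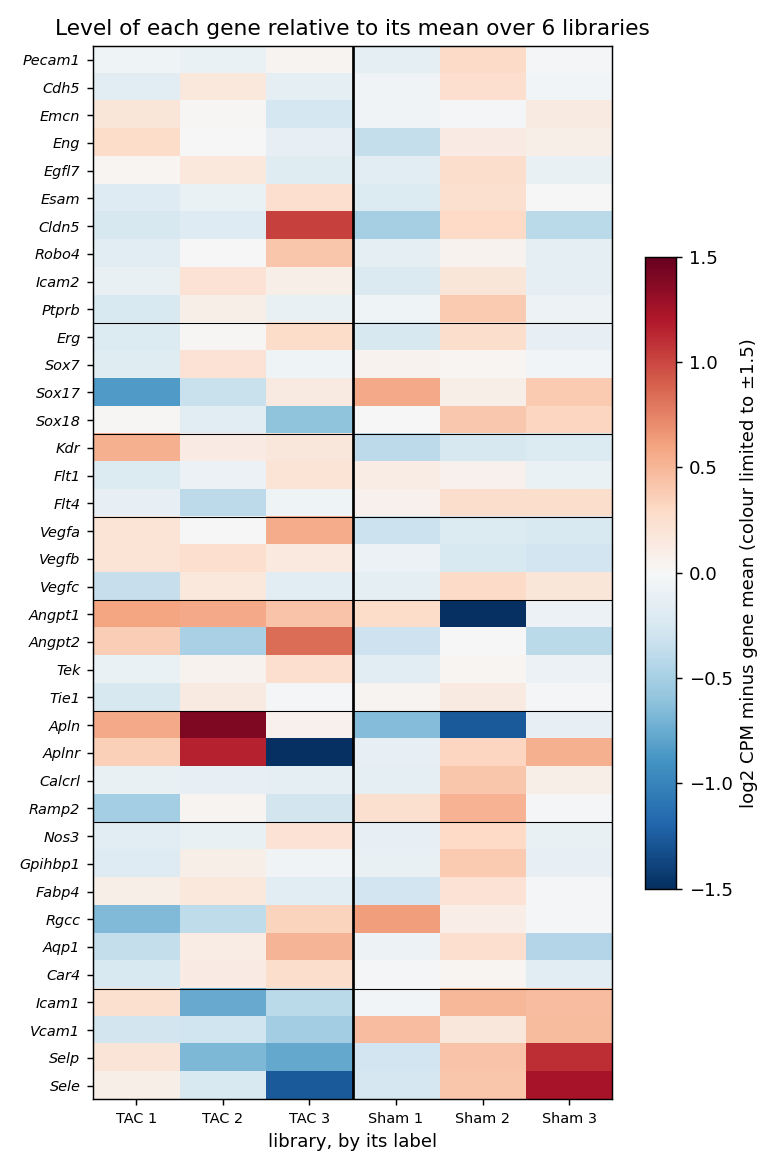
Each row is a member and each column a library, coloured by the log2 TMM-scaled count (CPM) minus the gene's mean over the 6 libraries. Cldn5 stands out in TAC 3, Angpt1 and Apln are low in Sham 2, and Aplnr is low in TAC 3.

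None of the 4 endothelial transcription factors passed with edgeR or DESeq2, and 2, Sox17 and Sox18, had an unadjusted p under 0.05, against 20.9% of the genes tested. Erg, an ETS factor that maintains endothelial genes, had an FPKM of 2.46, 2.92 and 3.56 in the TAC-labelled libraries and 2.52, 3.55 and 2.86 in the Sham-labelled ones (log2 difference 0.06, SE 0.18). Sox7 was as even, at 5.84, 7.88 and 6.55 against 7.28, 7.01 and 7.11 (log2 difference -0.02, SE 0.14). Both genes had overlapping groups.

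Sox17, a factor of arterial endothelium, had an FPKM of 0.539, 0.799 and 1.14 in the TAC-labelled libraries and 1.59, 1.11 and 1.46 in the Sham-labelled ones. TAC 3 lay just above Sham 2, so the groups overlapped, and the log2 difference was -0.68 (SE 0.26, edgeR adjusted p = 0.197; -0.97 without TAC 3 and -0.46 without TAC 1). Sox18 had an FPKM of 7.38, 6.61 and 4.83 against 7.62, 10.1 and 10.1 (log2 difference -0.50, SE 0.20, edgeR adjusted p = 0.216). The predicted gene Gm37587 overlaps Sox17 and had 114 counts over the 6 libraries against 1605 for Sox17.

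The VEGF receptors showed 3 patterns. Kdr, the main signalling receptor for VEGF-A (chr5:75932827-75978458), had an FPKM of 39.1, 29.8 and 31.2 in TAC-labelled libraries 1, 2 and 3 and 21.6, 23.7 and 25.7 in Sham-labelled libraries 1, 2 and 3. Every TAC-labelled library was above every Sham-labelled library, with a mean of 33.4 ± 4.99 against 23.7 ± 2.03 (SD, n = 3). The fitted difference was 1.48-fold (log2 difference 0.56, SE 0.14, 95% interval 0.24 to 0.88) and did not pass the test (edgeR adjusted p = 0.0912, 0.0128 with DESeq2 and 0.0128 to 0.230 over the alternatives). The printed start of Kdr is that of the gene with the smallest p in this role.

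Flt1, which binds VEGF-A and is known as a decoy receptor, had an FPKM of 15.7, 17.4 and 21.6 in the TAC-labelled libraries and 20.6, 19.6 and 18.6 in the Sham-labelled ones. The groups overlapped (log2 difference -0.04, SE 0.13). Flt4, the VEGF-C receptor of lymphatic and some capillary endothelium, had 2.91, 2.46 and 3.13 against 3.48, 3.95 and 4.19 FPKM. Its groups did not overlap, the Sham-labelled libraries being higher, and it did not pass (log2 difference -0.39, SE 0.13, edgeR adjusted p = 0.157).

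The ratio of Flt1 to Kdr within a library needs no scaling between libraries. Its log2 value was -1.31, -0.78 and -0.53 in TAC-labelled libraries 1, 2 and 3 and -0.07, -0.27 and -0.47 in Sham-labelled libraries 1, 2 and 3. Kdr thus exceeded Flt1 per length in all 6 libraries, and by more in the TAC-labelled ones. The mean was -0.88 ± 0.40 against -0.27 ± 0.20 (SD, n = 3), a difference of -0.60 with p = 0.10 in a two-sided exact permutation test. That is the smallest p that the 20 splits of 3 against 3 libraries allow, and the nearest libraries were TAC 3 and Sham 3.

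Of the VEGF ligands, Vegfa and Vegfb were higher in each TAC-labelled library than in any labelled Sham, and neither passed the test. Vegfa, the principal angiogenic factor, had an FPKM of 13.1, 11.6 and 17.2 in the TAC-labelled libraries and 9.53, 10.2 and 10.7 in the Sham-labelled ones. The difference was 1.44-fold (log2 difference 0.52, SE 0.15, edgeR adjusted p = 0.118, and 0.0418 with DESeq2). Vegfb, which binds Flt1 and is abundant in heart muscle, had 37.9, 39.9 and 37.4 against 32.4, 29.0 and 29.4 FPKM.

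The groups of Vegfb were 38.4 ± 1.31 and 30.3 ± 1.86 FPKM (SD, n = 3). On the log2 scale its within-group SD, 0.083, was the smallest of the non-overlapping members. Its fitted difference was 1.32-fold (log2 difference 0.41, SE 0.10, edgeR adjusted p = 0.0943, and 0.0253 with DESeq2). Vegfc, the ligand of Flt4, had an FPKM of 3.02, 4.48 and 3.60 against 3.71, 4.998 and 4.92, with overlapping groups (log2 difference -0.24, SE 0.20). Cardiac muscle cells are a known source of Vegfa and Vegfb, and the summed level of 8 cardiomyocyte markers was 129683 to 155623 CPM (counts scaled by TMM and library size) in the TAC-labelled libraries and 107726 to 124667 CPM in the Sham-labelled ones. All 8 had a positive log2 difference with a median of 0.45, none passing with edgeR and 3 with DESeq2, against 7.79% of the genes it tested. The part of these markers' cells in the ligand values was not tested.

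**Figure D3:**
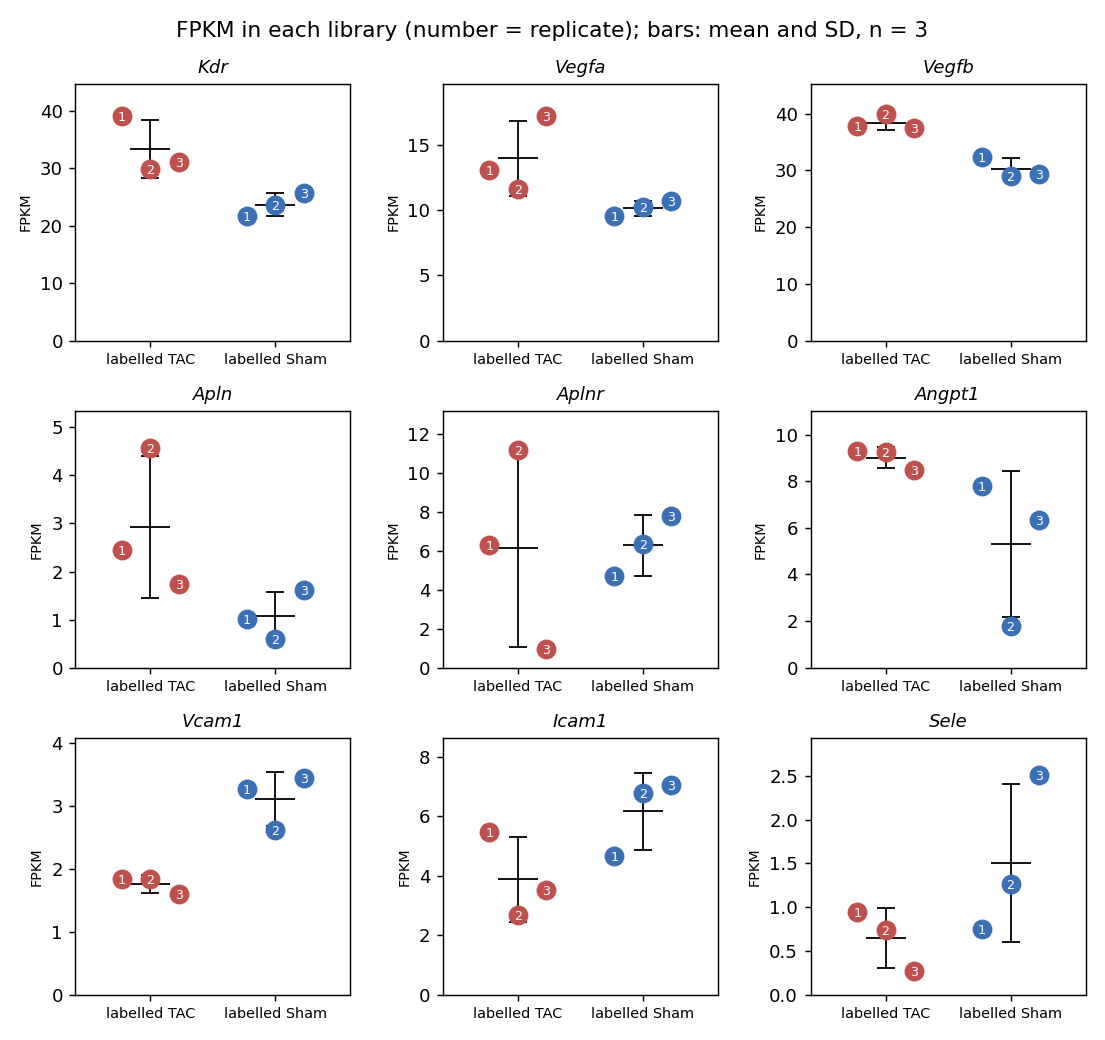
FPKM of 9 members in each library, with the replicate number in each point and the mean and SD of 3 libraries as bars, on axes that start at 0. Kdr, Vegfa, Vegfb, Apln and Angpt1 are higher in every TAC-labelled library and Vcam1 in every Sham-labelled library, while Aplnr, Icam1 and Sele overlap.

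With both groups pooled, the within-group SD on the log2 scale was 0.78 for Angpt1 and 0.50 for Angpt2, against 0.14 for each of Tek and Tie1. In the TAC-labelled libraries alone Angpt1 was even, at 39.3 ± 2.46 CPM (SD, n = 3). None of these 4 genes passed with edgeR or DESeq2 or had an unadjusted p under 0.05. Tek, the angiopoietin receptor, had an FPKM of 11.4, 13.0 and 15.1 in the TAC-labelled libraries and 11.6, 13.0 and 12.8 in the Sham-labelled ones (log2 difference 0.14, SE 0.12). Tie1, the related receptor without a bound ligand of its own, had 13.5, 17.8 and 16.1 against 17.3, 18.2 and 17.2 (log2 difference -0.09, SE 0.12). Both receptors had overlapping groups.

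Angpt1, the activating ligand made by cells around the vessel, had an FPKM of 9.28, 9.26 and 8.504 in the TAC-labelled libraries and 7.79, 1.77 and 6.35 in the Sham-labelled ones. Sham 2 stood far below the other 5 libraries, with 214 counts where the others had 470 to 849. The log2 difference was 0.85 (SE 0.44, edgeR adjusted p = 0.320) and 0.43 without Sham 2. Angpt2, the ligand stored in endothelial cells and known to oppose Angpt1, had 1.196, 0.614 and 1.76 against 0.737, 0.924 and 0.709 FPKM (log2 difference 0.64, SE 0.36, edgeR adjusted p = 0.357). Its groups overlapped, and the gene overlaps Mcph1, which had 1448 counts over the 6 libraries against 483 for Angpt2.

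The log2 ratio of Angpt2 to Angpt1 was -2.96, -3.91 and -2.27 in the TAC-labelled libraries and -3.40, -0.94 and -3.16 in the Sham-labelled ones. Angpt1 was thus the more abundant ligand per length in all 6 libraries, least so in Sham 2. The means differed by -0.55 (two-sided exact permutation p = 0.70, smallest possible 0.10), and by 0.24 once Sham 2 was left out.

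**Figure D4:**
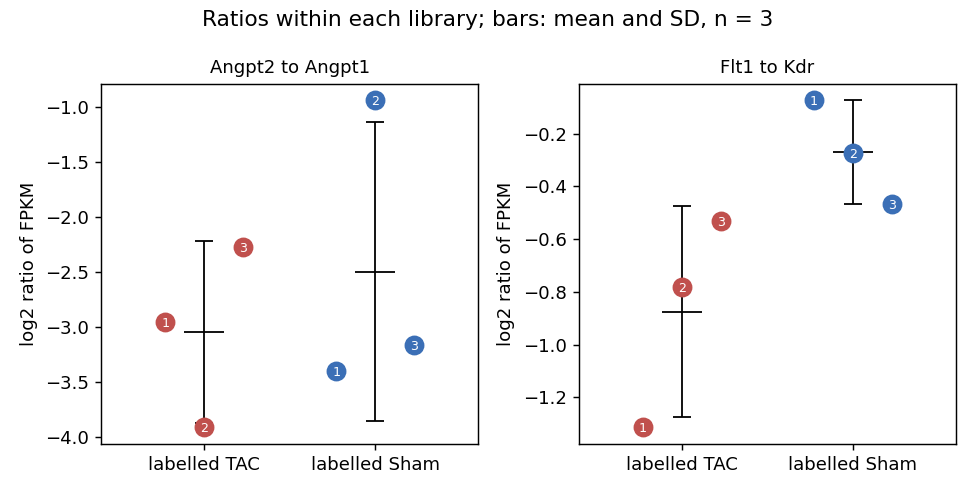
Log2 ratio of FPKM within each library, with the replicate number in each point and mean and SD of 3 libraries as bars. The Flt1 to Kdr ratio is lower in every TAC-labelled library, while the Angpt2 to Angpt1 ratio overlaps, with Sham 2 above the other 5 libraries.

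Apln had the largest estimate of the members in either direction. It encodes apelin, a peptide of angiogenic endothelium that also acts on heart contraction. Its FPKM was 2.45, 4.57 and 1.75 in the TAC-labelled libraries and 1.01, 0.604 and 1.61 in the Sham-labelled ones, from 54 to 289 counts. The groups did not overlap, although TAC 3 and Sham 3 were close. The difference was 2.91-fold (log2 difference 1.54, SE 0.43, 95% interval 0.53 to 2.55) and did not pass (edgeR adjusted p = 0.117, and 0.00862 with DESeq2). It was 1.07 without TAC 2 and 1.91 without Sham 3.

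Aplnr, the apelin receptor, had an FPKM of 6.30, 11.2 and 0.969 in the TAC-labelled libraries and 4.68, 6.35 and 7.79 in the Sham-labelled ones. TAC 2 was the highest and TAC 3 the lowest of the 6 libraries, with 899 and 77 counts. Its spread within groups, an SD of 1.28 on the log2 scale, was the largest of the members, where the median member had 0.22 and the median gene tested 0.21. The log2 difference of 0.04 (SE 0.67) became 0.55 without TAC 3 and -0.70 without TAC 2. Apln and Aplnr were both highest in TAC 2, while in TAC 3 Aplnr was low and Apln lay below TAC 1 and TAC 2 and above every Sham-labelled library.

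The adrenomedullin receptor consists of Calcrl and its partner Ramp2. Ramp2 had an FPKM of 3.37, 5.04 and 4.11 in the TAC-labelled libraries and 6.00, 7.23 and 5.24 in the Sham-labelled ones, and did not pass (log2 difference -0.51, SE 0.19, edgeR adjusted p = 0.190). Calcrl had 6.76, 6.80 and 6.86 against 6.97, 10.05 and 8.49 FPKM (log2 difference -0.26, SE 0.15, edgeR adjusted p = 0.357). The groups of both genes overlapped after TMM scaling and did not overlap in FPKM. Vps25, which overlaps Ramp2, had 2071 counts over the 6 libraries against 3794 for Ramp2.

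Genes of capillary transport and nitric oxide included the most abundant members, and none of the 6 passed with edgeR or DESeq2 or had an unadjusted p under 0.05. Aqp1, the water channel of capillaries and red cells, had the highest mean level of the 38, with an FPKM of 76.7, 108.1 and 145.1 in the TAC-labelled libraries and 98.2, 121.5 and 80.1 in the Sham-labelled ones. Fabp4, a fatty acid binding protein of capillaries and fat cells, followed with 65.3, 69.3 and 56.6 against 52.7, 73.5 and 66.4 FPKM. Both had overlapping groups (log2 differences 0.19, SE 0.25, and 0.05, SE 0.15).

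Fabp4 also marks adipocytes, and it had at least 5583 counts in each library. Adipoq, which encodes adiponectin, had 0 to 7 counts per library, and the 5 adipocyte markers summed to at most 3.76 CPM. The part of adipocytes in the Fabp4 values was not tested. Red cells carry Aqp1, and the 5 erythroid markers summed to 274.2 to 593.9 CPM in the TAC-labelled libraries and 266.6 to 345.7 in the Sham-labelled ones. The part of red cell RNA in the Aqp1 values was not tested.

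Gpihbp1, which carries lipoprotein lipase across capillaries, had an FPKM of 11.3, 14.0 and 12.8 in the TAC-labelled libraries and 12.6, 17.7 and 13.1 in the Sham-labelled ones (log2 difference -0.12, SE 0.17). Nos3, the endothelial nitric oxide synthase, had 7.04, 7.45 and 9.50 against 7.63, 10.1 and 8.05 (log2 difference -0.05, SE 0.17). Car4, a carbonic anhydrase of the capillary surface, had a log2 difference of 0.13 (SE 0.16). Rgcc, a cell cycle regulator enriched in cardiac capillaries, had the smallest p of this role and more spread, at 16.3, 20.3 and 34.4 against 43.0, 29.2 and 28.4 FPKM (log2 difference -0.45, SE 0.29, edgeR adjusted p = 0.412). Its groups overlapped because TAC 3 was above Sham 2 and Sham 3.

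The 4 leukocyte adhesion genes had negative estimates, with a median log2 difference of -0.93, and all 4 stayed negative in every alternative run. Vcam1 (chr3:116109949-116129688), which binds leukocyte integrins, had an FPKM of 1.84, 1.84 and 1.59 in TAC-labelled libraries 1, 2 and 3 and 3.26, 2.62 and 3.45 in Sham-labelled libraries 1, 2 and 3. Every TAC-labelled library was below every Sham-labelled library, with means of 1.76 ± 0.14 and 3.11 ± 0.43 (SD, n = 3). Vcam1 was 1.69-fold lower in the TAC-labelled libraries and passed (log2 difference -0.75, SE 0.14, 95% interval -1.07 to -0.44, edgeR adjusted p = 0.0487). In that direction 1.11% of the genes tested passed.

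The call for Vcam1 lay close to the threshold. It was lost when any of the 6 libraries was left out (edgeR adjusted p = 0.0611 to 0.145), in fits of 5 libraries that passed 0 to 397 genes in all against 217 with 6. It was also lost with limma on log2(FPKM + 0.1) (adjusted p = 0.0549) and on log2(FPKM + 1) (adjusted p = 0.0586). The log2 difference itself stayed between -0.84 and -0.57 in all alternatives, where the adjusted p ran from 0.00061 to 0.145. Vcam1 is not restricted to endothelium, being known also in fibroblasts and mural cells. The 7 fibroblast markers summed to 1211 to 1683 CPM in the TAC-labelled libraries and 1766 to 2303 CPM in the Sham-labelled ones. All 7 had a negative log2 difference, 0 past the threshold with edgeR and 3 with DESeq2, against 7.79% of the genes it tested. The part of fibroblasts in the Vcam1 value was not tested.

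Icam1, the ligand of leukocyte integrins that is raised by inflammatory signals, had an FPKM of 5.46, 2.67 and 3.52 in the TAC-labelled libraries and 4.67, 6.76 and 7.04 in the Sham-labelled ones. TAC 1 was above Sham 1, so the groups overlapped (log2 difference -0.60, SE 0.28, edgeR adjusted p = 0.276). Sele, the selectin made only after endothelial activation, had 0.943, 0.736 and 0.277 against 0.748, 1.27 and 2.51 FPKM (log2 difference -1.11, SE 0.53, edgeR adjusted p = 0.278).

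Sele rested on few counts, 16 to 127 per library, and on Sham 3, without which its log2 difference was -0.59. Selp, the selectin stored in endothelial cells and platelets, was the least abundant member, with 22, 7 and 6 counts in the TAC-labelled libraries and 13, 38 and 45 in the Sham-labelled ones. Its groups overlapped, and its log2 difference was -1.32 (SE 0.63, edgeR adjusted p = 0.281), -0.78 without Sham 3 and -2.12 without TAC 1. The 5 platelet markers summed to 30.3 CPM in TAC 1 and 8.52 to 18.5 CPM in the other 5 libraries, and TAC 1 had the most Selp counts of its group. Whether platelet RNA took part in the Selp value was not tested. Both selectins were highest per length in Sham 3.

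Partners of these adhesion molecules were read from a list of 16 leukocyte and vascular genes, of which 14 were tested. It holds leukocyte integrins and selectin ligands, and also junction and adhesion molecules and addressins of vascular cells. None passed with edgeR or DESeq2, and 2 had an unadjusted p under 0.05, against 20.9% of the genes tested. The median log2 difference was -0.25, with 10 of 14 negative. Itgb7, an integrin chain of lymphocytes, had the smallest p (log2 difference -1.11, SE 0.35, edgeR adjusted p = 0.136), followed by Mcam, an adhesion molecule of vascular cells (-0.49, SE 0.19, edgeR adjusted p = 0.201). Markers of macrophages, leukocytes that reside in the heart, had negative estimates in 8 of 8 and a median of -0.68. They summed to 133.4 to 229.5 CPM in the TAC-labelled libraries and 279.2 to 304.0 CPM in the Sham-labelled ones. None of the 8 passed with edgeR, and 2 did with DESeq2, against 7.79% of the genes it tested. At an unadjusted p under 0.05 there were 6, against 20.9% of the genes tested.

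Other genes of the same pathways were read from lists of 139 companion genes, 131 of them tested. Of these, 4 passed the test (Svep1, Ets1, Mgp and Slc2a1), all lower in the TAC-labelled libraries, against 1.43% of genes tested in either direction. With DESeq2, 13 of the 131 passed, against 7.79% of the genes it tested. The median log2 difference over the 131 was -0.16, against 0.01 over all genes tested.

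Svep1, a large matrix protein of lymphatic and vascular development, had an FPKM of 2.26, 2.73 and 1.92 in the TAC-labelled libraries and 8.93, 11.4 and 6.77 in the Sham-labelled ones. It was 3.77-fold lower in the TAC-labelled libraries (log2 difference -1.91, SE 0.23, edgeR adjusted p = 0.0222). It was the 1 of 16 tested genes of the VEGF, angiopoietin and apelin list that passed, against 1.43% of the genes tested. With DESeq2, 4 of the 16 passed, against 7.79% of the genes it tested. At an unadjusted p under 0.05 there were 6, against 20.9% of the genes tested. Thbs1, an inhibitor of angiogenesis, had a log2 difference of -2.18 (SE 0.58, edgeR adjusted p = 0.107). Vegfd, listed under its older symbol Figf, was at -1.04 (SE 0.29, edgeR adjusted p = 0.118). The hypoxia factor gene Hif1a was at -0.52 (SE 0.20, edgeR adjusted p = 0.192), and Epas1, another one, at -0.01. Of the 16 estimates, 10 were negative and 6 positive. The highest was that of Ramp1, at 1.44 (SE 0.49, edgeR adjusted p = 0.160), with overlapping groups.

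Ets1, an ETS transcription factor of endothelial and immune cells, was the 1 of 19 other endothelial transcription factors that passed. Its FPKM was 3.26, 3.41 and 3.04 in the TAC-labelled libraries and 6.97, 10.3 and 8.42 in the Sham-labelled ones, 2.54-fold lower in the former (log2 difference -1.34, SE 0.16, edgeR adjusted p = 0.0222). With edgeR 1 of the 19 passed, against 1.43% of the genes tested, and with DESeq2 3, against 7.79% of the genes it tested. At an unadjusted p under 0.05 there were 4, against 20.9% of the genes tested. Erg and Fli1, ETS factors as well, were at 0.06 and -0.16. Bcl6b (0.63, SE 0.16, edgeR adjusted p = 0.0962) and Meox2 (0.58, SE 0.16, edgeR adjusted p = 0.113), factors of endothelial cells, had positive estimates and did not pass.

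Arterial endothelial genes had negative estimates in 9 of 10, with a median log2 difference of -0.57. Mgp, a matrix calcification inhibitor that fibroblasts and smooth muscle also make, was the 1 that passed, with an FPKM of 25.3, 26.8 and 25.7 against 76.5, 104.7 and 67.7 (log2 difference -1.62, SE 0.18, edgeR adjusted p = 0.0222). Gja5 (log2 difference -1.36, SE 0.39, edgeR adjusted p = 0.119) and Gja4 (-0.63, SE 0.20, edgeR adjusted p = 0.135), connexins of arterial endothelium, did not pass. In 6 of the 10 the groups did not overlap, all higher in the Sham-labelled libraries, against 13.6% of the genes tested. With edgeR 1 of the 10 passed, against 1.43% of the genes tested, and with DESeq2 2, against 7.79% of the genes it tested. At an unadjusted p under 0.05 there were 7, against 20.9% of the genes tested. Fibroblast markers were also higher in the Sham-labelled libraries, as given above, and their part in the arterial list was not tested.

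Of 13 tested genes of the hypoxia response, Slc2a1, a glucose transporter, passed, with an FPKM of 2.12, 2.31 and 2.36 in the TAC-labelled libraries and 3.49, 5.05 and 4.502 in the Sham-labelled ones (log2 difference -0.88, SE 0.16, edgeR adjusted p = 0.0488). With edgeR 1 of the 13 passed, against 1.43% of the genes tested, and with DESeq2 1, against 7.79% of the genes it tested. At an unadjusted p under 0.05 there were 3, against 20.9% of the genes tested. The list's median was -0.20, with 9 of 13 negative, and Pdk1, another target, was at -0.02. None of 11 Notch pathway genes passed with edgeR or DESeq2, and their median was -0.11. Of these 11, 3 had an unadjusted p under 0.05, against 20.9% of the genes tested. Hey2 (log2 difference 0.52, SE 0.16, edgeR adjusted p = 0.134), a Notch target, and Jag1 (-0.58, SE 0.19, edgeR adjusted p = 0.153), a Notch ligand, had the smallest p of that list and opposite signs. Of 28 other pan-endothelial genes none passed with edgeR and 1 did with DESeq2, against 7.79% of the genes it tested. At an unadjusted p under 0.05 there were 5, or 17.9%, against 20.9% of the genes tested, and the median was -0.15. Exoc3l2 (-1.45, SE 0.34, edgeR adjusted p = 0.0833) and Podxl (-0.42, SE 0.13, edgeR adjusted p = 0.133) had the smallest p there.

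The calls of these companion genes were lost in several fits of 5 libraries, which passed few genes of any kind. Over all genes, 0 passed without TAC 1, 10 without TAC 2, 22 without TAC 3, 24 without Sham 2 and 40 without Sham 3, against 397 without Sham 1. Svep1 and Mgp no longer passed without TAC 1, TAC 2 or TAC 3, and Ets1 without those or Sham 3. Slc2a1 passed without Sham 1 and not without any of the other 5. Their log2 differences stayed negative throughout, between -2.10 and -1.58 for Svep1, -1.47 and -1.16 for Ets1, -1.77 and -1.39 for Mgp and -1.01 and -0.70 for Slc2a1.

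**Figure D5:**
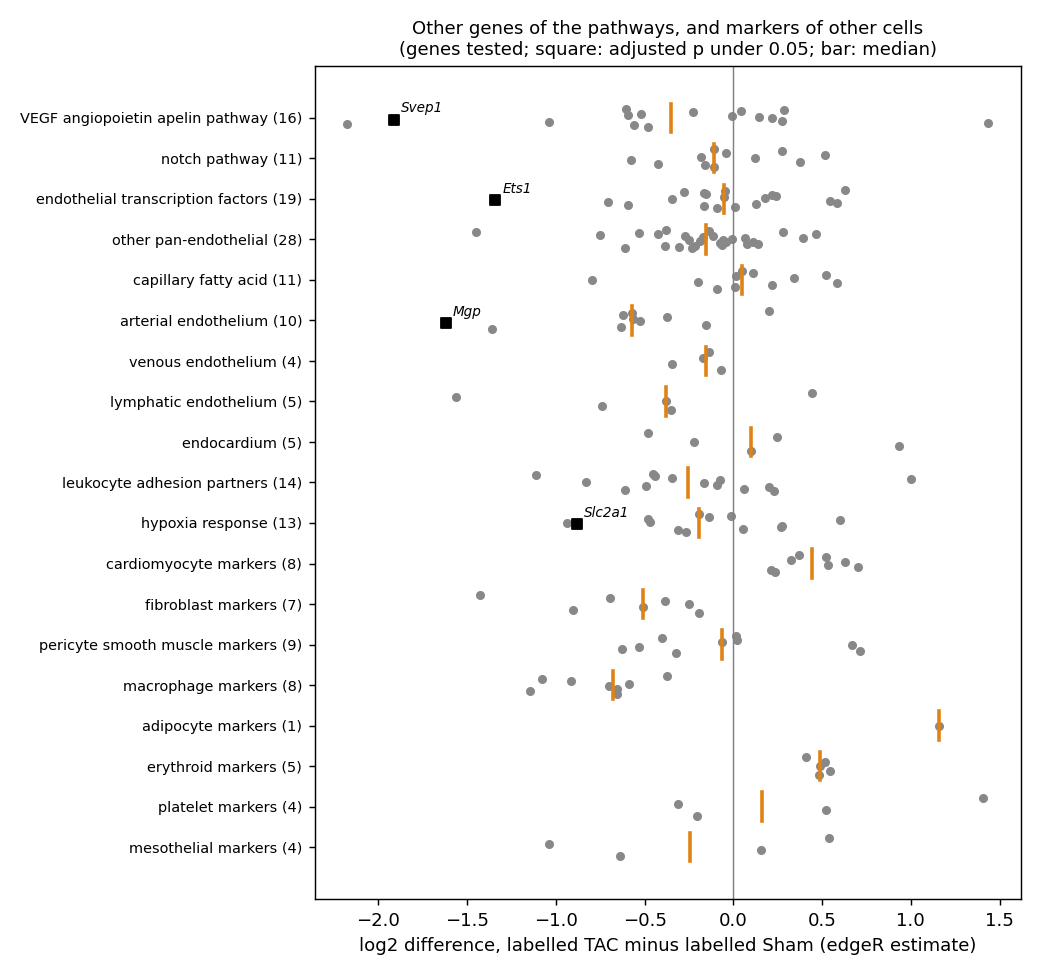
Estimated log2 difference, labelled TAC minus labelled Sham, of each tested gene of the companion lists and of the markers of other cells, with the number tested in brackets, the median as an orange bar and genes past an adjusted p of 0.05 as named squares. Cardiomyocyte markers lie to the right of 0, and fibroblast and macrophage markers to the left.

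Per length, the members spanned a wide range of levels in these hearts. By the mean FPKM over 6 libraries, 3 members were above 50 (Aqp1, Fabp4 and Cdh5), 12 between 10 and 50, 21 between 1 and 10 and 2 below 1 (Angpt2 and Selp). Among the receptors and ligands the order was Vegfb at 34.3, Kdr at 28.5, Flt1 at 18.9, Tie1 at 16.7, Tek at 12.8 and Vegfa at 12.1, followed by Calcrl at 7.65, Angpt1 at 7.16, Aplnr at 6.21, Ramp2 at 5.16, Vegfc at 4.12, Flt4 at 3.35, Apln at 1.999 and Angpt2 at 0.990. Ranges over the 6 libraries of neighbours in this order, such as Tek and Vegfa or Angpt1 and Aplnr, overlapped. The endothelial markers used to check the tissue, Pecam1, Cdh5, Kdr, Tek, Tie1, Emcn, Egfl7, Esam, Cldn5, Robo4 and Erg, were all detected in every library, none below an FPKM of 2.46.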

How the data were processed

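Total RNA libraries of left ventricle, 3 labelled TAC and 3 labelled Sham, were read from a table with 1 count and 1 FPKM column per library. The deposited counts are whole numbers for each gene and were not normalized. The deposited FPKM values scale those counts by gene length and library depth. Per the submitters' processing notes, tools included HISAT2 (2.0.4) and StringTie (1.3.0), and the build was GRCm38 (mm10). Strand setting, counting program and annotation version: not given in the sources used here, so reads of overlapping genes cannot be told apart. Each column was tied to its library by the description label. A lncRNA table was not used here.

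Counts were tested with edgeR 4.0.16 in R 4.3.3 (quasi-likelihood, TMM, filterByExpr at its default minimum count of 10, no block), with Benjamini-Hochberg adjustment over the 15198 genes tested. SEs were derived from the size of each log2 difference and its F statistic. Alternatives used DESeq2 1.42.0, limma 3.58.1, other scalings, no filter, a replicate block and each library left out. Per-gene tests were checked on simulated data. The members and lists were chosen with earlier results of these data known. Members were described by role, with full statistics for those past the threshold and for the smallest p of each role. From each companion list the genes past the threshold, and otherwise the 2 with the smallest p, were named. Added after their values were seen were values of further members, Thbs1, Vegfd, Hif1a, Epas1, Ramp1, Fli1, Bcl6b, Meox2 among the factors, Gja5, Gja4, Pdk1, Lyve1, Cd36, Abcc9, Tagln and Adipoq. Of 190 companion and marker symbols, 189 matched directly and 1 through its gene ID. Promoter windows are from RefSeq (GRCm38.p6).

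Replicate libraries differed by more than counting noise (chi-square per gene of at least 16.7). Depth was 17399510 to 28401399 counts per library.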

Additional observations from a re-analysis of the deposited data

How the results depend on the processing

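Vcam1 was the 1 member past the threshold with TMM or median-of-ratios scaling, with library totals without TMM and with no low-count filter. With DESeq2 there were 5, and there were 0 under limma with a pseudocount of 0.1 FPKM, 0 under limma with 1 FPKM and 0 under the replicate block. Leaving out 1 library gave 0 to 0 members, with edgeR in 5 libraries. The 4 companion genes became 13 with DESeq2, and 0 to 6 with 1 library left out (0 when TAC 1, TAC 2 or TAC 3 was the one omitted, 2 when it was Sham 3). These fits rest on 5 libraries.

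Of 494 values of single members under the alternatives, 441 kept their sign and their side of the threshold, 9 lost the call (all Vcam1), 4 gained it with DESeq2 and 40 changed sign, 29 of them with 1 library left out. The changes of sign outside leave-one-out concerned Erg, Fabp4, Egfl7 and Aplnr, whose main estimates were near 0. Aplnr, the member with the largest spread within groups, did not stay near 0. Without TMM, Erg was at -0.00087, Aplnr at -0.030 and Fabp4 at -0.011. With limma on log2(FPKM + 0.1), Erg was at -0.00094, Aplnr at -0.55 and Fabp4 at -0.0020. With limma on log2(FPKM + 1), Erg was at -0.00035, Aplnr at -0.36 and Fabp4 at -0.0021. With the replicate block, Egfl7 was at 0.0017 and Aplnr at -0.34. With 1 library left out, the log2 difference ranged from -0.18 to 0.043 for Pecam1, -0.21 to 0.0033 for Cdh5, -0.14 to 0.079 for Emcn, -0.046 to 0.18 for Eng, -0.085 to 0.14 for Egfl7, -0.17 to 0.095 for Esam, -0.082 to 0.83 for Cldn5, -0.010 to 0.29 for Robo4, -0.077 to 0.23 for Erg, -0.14 to 0.070 for Sox7, -0.17 to 0.042 for Flt1, -0.18 to 0.0029 for Tie1, -0.70 to 0.55 for Aplnr, -0.18 to 0.11 for Nos3, -0.21 to 0.076 for Gpihbp1, -0.067 to 0.19 for Fabp4 and -0.045 to 0.39 for Aqp1. The cause was not tested.

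With 1 library left out, the ratio of Angpt2 to Angpt1 differed between the groups by -0.996 to 0.24 and that of Flt1 to Kdr by -0.78 to -0.39. Pairing by replicate number (replicate block) leaves the mean differences over all libraries, -0.55 and -0.60, unchanged by arithmetic, so it is no check on them. The number of members whose groups do not overlap, checked under other scalings after seeing the data, was 7 with median-of-ratios scaling and 10 with library totals or the deposited FPKM. The share of all genes tested was computed with TMM only (27.0%), so the rise to 10 was not compared with that of all genes. The replicate numbers did not pair the libraries: the deviations of same-numbered libraries correlated at -0.12, -0.13 and -0.10. Under the block Vcam1 (adjusted p = 0.127) and Slc2a1 (adjusted p = 0.106) did not pass. The block lowered the calls over all genes from 217 to 41, and library totals without TMM raised them to 338, shifting the median of all genes from 0.01 to -0.06. Over all genes, the split of calls was 49 higher in the libraries labelled TAC and 168 lower, 478 and 706 with DESeq2, 42 and 296 without TMM, and 1 and 40 with the block. Selp and Sele rest on low counts, 6 to 127 per library.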

Other observations

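Other classes of endothelium were read from short lists, and none of their genes passed edgeR's test. At an unadjusted p under 0.05 there were 3 of 5 lymphatic, 3 of 11 capillary fatty acid, 2 of 5 endocardial and 1 of 4 venous genes, against 20.9% of the genes tested. With DESeq2, 2 lymphatic genes, 1 capillary fatty acid gene and no endocardial or venous gene passed, against 7.79% of the genes it tested. Lymphatic genes had 4 of 5 negative estimates (median log2 difference -0.38). Pdpn, a mucin-type protein of lymphatic endothelium and activated fibroblasts, had an FPKM of 2.25, 1.72 and 1.58 in TAC-labelled libraries 1, 2 and 3 and 3.45, 5.19 and 8.75 in Sham-labelled libraries 1, 2 and 3 (log2 difference -1.56, SE 0.33, edgeR adjusted p = 0.0641). Prox1, the transcription factor that sets lymphatic identity and is also expressed in cardiac muscle, had the opposite sign, with 19.3, 17.8 and 18.5 against 15.7, 12.1 and 14.9 FPKM (log2 difference 0.44, SE 0.12, edgeR adjusted p = 0.109). Lyve1, a hyaluronan receptor of lymphatic endothelium and resident macrophages, was at -0.38 (SE 0.20). The summed level of the 6 lymphatic genes, 229.2 to 275.6 and 220.5 to 244.5 CPM, was mostly Prox1, with a mean of 192.2 CPM in the TAC-labelled libraries and 141.4 in the Sham-labelled ones, so it does not describe the other genes.

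The genes of the capillary fatty acid list had a median of 0.05, with the factor Meox2 at 0.58 (SE 0.16, edgeR adjusted p = 0.113). Lpl, the lipase that Gpihbp1 carries and that muscle cells make, had 641.2, 590.1 and 953.3 FPKM in the TAC-labelled libraries and 561.9, 517.3 and 505.7 in the Sham-labelled ones (log2 difference 0.52, SE 0.20, edgeR adjusted p = 0.188), and Cd36, a fatty acid translocase, was at 0.11 (SE 0.13). Endocardial genes had a median of 0.10. Tmem108 (0.93, SE 0.23, edgeR adjusted p = 0.0943) and Npr3, the natriuretic peptide clearance receptor (-0.48, SE 0.16, edgeR adjusted p = 0.162), had opposite signs. All 4 tested venous genes were negative, with a median of -0.15, led by Nr2f2, a factor of venous identity (-0.34, SE 0.13, edgeR adjusted p = 0.181) and Ephb4, a venous ephrin receptor (-0.17, SE 0.12, edgeR adjusted p = 0.451). Mural cell markers had a median of -0.06, with 4 positive and 5 negative, and did not move as 1 group. Of these 9, 6 had an unadjusted p under 0.05, against 20.9% of the genes tested. None passed with edgeR and 3 did with DESeq2, against 7.79% of the genes it tested. Groups did not overlap for 1 higher in the TAC-labelled libraries and 4 higher in the Sham-labelled ones, against 13.4% and 13.6%. Abcc9, a pericyte channel subunit that cardiac muscle also expresses (0.67, SE 0.17, edgeR adjusted p = 0.0953), and Tagln, a smooth muscle protein (-0.53, SE 0.12, edgeR adjusted p = 0.0729), had opposite signs, and neither passed with edgeR. Mesothelial markers summed to 7.28 to 14.1 CPM over the 6 libraries.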
